A study of Mus musculus with 6 samples.

Results

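Integrins, laminins and cadherins were examined in HT22 cells, an immortalized mouse hippocampal neuronal line, as the genes of 3 adhesion systems. Their members were the gene symbols of the deposited expression table that have the form of an integrin alpha or beta chain (Itga or Itgb with a number or v), a laminin chain (Lama, Lamb or Lamc with a number) or a numbered cadherin (Cdh). This rule used symbols only and found 56 of the 21878 genes of the table: 13 integrin alpha chains, 9 integrin beta chains, 5 laminin alpha chains, 3 laminin beta chains, 3 laminin gamma chains and 23 cadherins. RNA was measured in 6 input libraries of a MeRIP-seq experiment, 3 from control cells and 3 from cells given 120 µM aluminum maltolate for 24 h (Al group). Both groups were the unmodified line. The methods give the name control to cells in DMEM alone and list maltolate without aluminum as another group, so the sequenced comparison by its name has no ligand control. The labels tell the groups apart by a letter and a number, and 1 line under 1 dose and 1 time limits what the comparison covers. The libraries were described as biological replicates, without saying how the cultures were separated, so the p-values measure the spread between these libraries.

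Integrins are receptors made of an alpha and a beta chain that tie the extracellular matrix to the actin cytoskeleton. Laminins are secreted trimers of an alpha, a beta and a gamma chain that build basement membranes and are bound by several integrins. Classical cadherins join neighbouring cells through calcium-dependent contacts and hold catenins on their cytoplasmic tails. In the hippocampus these systems are known for their roles in neurite growth, synapse adhesion and the structure of the matrix around cells.

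Expression was deposited as FPKM, which scales reads by gene length and library size, and the reads themselves could be recovered as whole numbers. The control libraries held 38059492 to 44556768 reads and the Al libraries 21125631 to 26670978, so rare transcripts were measured less precisely in the Al group. Across genes, log2 values of libraries of 1 group correlated at 0.990 or more for control and at 0.975 or more for Al. Of 15 neuronal markers, 2 reached a mean of 1 FPKM (Tubb3 and Eno2), and the summed level of the list was 8.14 to 9.68 FPKM in the control libraries and 4.38 to 8.32 in the Al libraries. Of the neuronal markers, Nefm and Snap25 were listed at 0 in all 6 libraries. None (0 of 5) of the markers of hippocampal excitatory neurons reached 1 FPKM, whereas 8 of 8 fibroblast or mesenchymal markers did, with sums of 3191 to 4477 FPKM in control and 3702 to 4687 in Al. Within that list 2 markers were called higher, Col1a1 (990 and 1327 FPKM) and Thy1 (34.9 and 69.0), and 2 lower, Pdgfra (13.5 and 4.16) and Dcn (9.63 and 1.94), 25% each way and near the 26.2% and 24.4% of all tested genes. Col1a1 was called on the main scale alone, and its log2 fold change of 0.92 turned to -0.46 with quantile normalization. The astrocyte marker Slc1a3 had 18.9 FPKM in control and 1.70 in Al, the only one of 6 astrocyte markers at or above 1 FPKM. Tmem119, at 43.5 FPKM in control and 41.8 in Al, was the only one of 6 microglia and leukocyte markers above 1 FPKM, and none of the oligodendrocyte, endothelial and epithelial markers reached it. The labelled neuronal identity therefore rests on few of its markers, and the part of these markers in the results below was not tested. In bulk RNA, fewer cells of a type and less RNA per cell cannot be told apart.

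A member was called expressed at a mean of at least 1 FPKM over the 6 libraries and was tested at a mean of at least 0.1 FPKM. This left 17 expressed members and 8 low members for the test, 25 in all, while 23 members lay below the test limit and 8 were listed at 0 in every library. The untested members above 0 were Cdh3, Cdh4, Cdh5, Cdh6, Cdh9, Cdh11, Cdh13, Cdh15, Cdh16, Cdh22, Itga1, Itga2, Itga4, Itga8, Itga9, Itgb3, Itgb6, Itgb8, Lama1, Lama2, Lama3, Lama4 and Lamc3, with at most 48 reads in a library. The genes at 0 were Cdh7, Cdh8, Cdh10, Cdh12, Cdh18, Cdh19, Cdh20 and Itgb2l, and 0 reads leave room for 3 reads expected in a library, a limit that covers counting error only. Among the tested members, Cdh17 alone passed the limit through 1 group, since its control mean was under 0.1 FPKM.

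For the test, FPKM was divided by a size factor for each library (median of ratios), and log2(value + 0.1) was fitted with limma. Calls needed P under 0.05 without adjustment and a log2 fold change beyond 0.58 in either direction. Adjustment for the 12889 genes tested used the Benjamini-Hochberg method. Of the 25 members, 10 were called higher in Al (40%, against 26.2% of all tested genes) and 3 were called lower (12%, against 24.4%). Together 52% were called either way, near the 50.6% of all genes. The groups did not overlap in scaled FPKM for 20 of the 25 (80%, against 68.1% of all genes). The median log2 fold change of the 25 was 0.38, and that of all tested genes was 0.03. The scale between libraries bears on these counts: the median of all genes shifted to -0.43 with FPKM as deposited and to -0.72 with TPM, and it was -0.03 with quantile normalization. Higher calls made up 51.8% of all calls over the table, but 25% on the deposited scale and 14.9% after TPM scaling. Of the 13 called members, 7 were called in the same direction under all 4 scalings, 4 higher (Lama5, Itga7, Itga11 and Cdh17) and 3 lower (Cdh1, Cdh24 and Cdh26). Over the whole table, 8.75% of the tested genes were called higher and 20.5% lower under all 4 scalings. Without Cdh17, which reached the test through the Al group alone, 9 of 24 members (37.5%) were called higher, 3 of them under all 4 scalings.

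**Figure D1:**
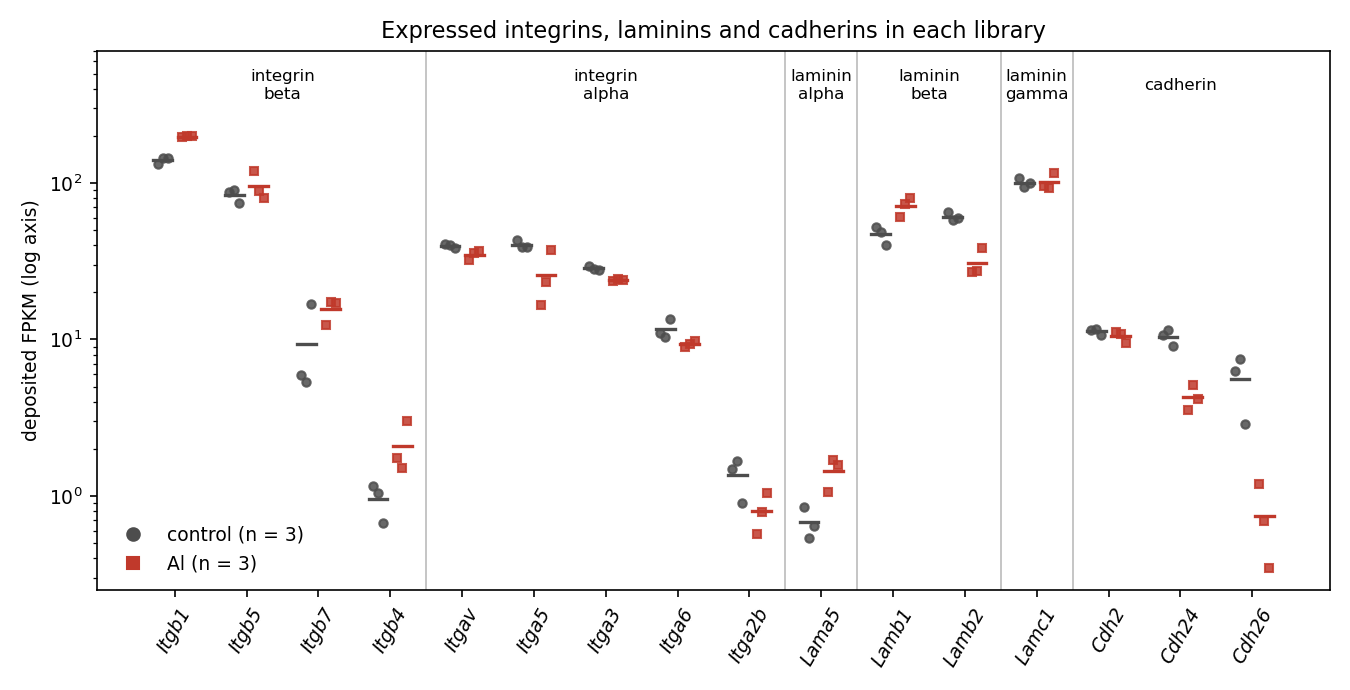
Deposited FPKM (log axis) of 16 expressed members in each of 3 control libraries (grey circles) and 3 Al libraries (red squares), with short lines at the group means. Itgb1 lay between 132 and 144 FPKM in control and between 197 and 198 in Al, while Cdh26 lay between 2.87 and 7.49 FPKM in control and between 0.345 and 1.20 in Al.

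The integrin beta chains were the family with the largest count of higher calls, 4 of 5 tested (against 26.2% of all genes), with a median log2 fold change of 0.99. With TPM none of the 5 was called higher, against 9.31% of all genes. Itgb1, the beta chain shared by receptors for fibronectin, laminin and collagen, had 132, 144 and 144 FPKM in control and 197, 198 and 198 in Al. All Al libraries lay above all control libraries. Its log2 fold change was 0.99 ± 0.12 (SE, n = 3 and 3, limma adjusted P = 0.000151). On the deposited scale the change was 0.50, with quantile normalization 0.31 and with TPM 0.20, all in the same direction but under the fold threshold. Itgb1 lies on chromosome 8 from 128685654 to 128733200 (GRCm38, GENCODE, plus strand).

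Itgb5, which pairs with the alpha v chain in a vitronectin receptor, had 87.3, 90.0 and 74.0 FPKM in control and 119, 88.4 and 79.6 in Al. These groups overlapped before scaling and not after it, and the highest value was in Al 1. For Itgb5 the log2 fold change was 0.66 ± 0.19 (limma adjusted P = 0.0141), and it was called on the main scale alone among the 4 scalings. It was 0.17 as deposited, 0.13 with quantile normalization and -0.12 with TPM, without a call, so that its direction depended on the scale. The call was also lost without control 3 (0.57) and without Al 1 (0.46).

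Itgb7, known from lymphocytes as the partner of the alpha 4 and alpha E chains, had 5.92, 5.35 and 16.9 FPKM in control and 12.3, 17.4 and 17.2 in Al. Control 3 reached the level of the Al libraries, so the groups overlapped in deposited FPKM. For Itgb7 the log2 fold change was 1.40 ± 0.39 (limma adjusted P = 0.0123), from 1.08 without control 2 to 1.92 without control 3. With TPM it was 0.62, where the call was lost. The gene length behind its FPKM was 5708 bases, against 2770 bases of exons in GENCODE, so its level per length is uncertain. Itgae, the alpha E chain itself, falls outside the symbol rule and was listed with 4 other leukocyte alpha chains, which were not tested because of their low levels. It had 0.751 ± 0.0200 FPKM in control and 2.01 ± 0.422 in Al (SD, n = 3 each) and rose under all 4 scalings (log2 fold change 1.74).

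Itgb4, which forms the laminin receptor of hemidesmosomes with the alpha 6 chain, had 1.16, 1.05 and 0.670 FPKM in control and 1.74, 1.52 and 3.01 in Al. Every Al library exceeded every control library, with Al 3 the highest. The log2 fold change of Itgb4 was 1.47 ± 0.27 (limma adjusted P = 0.00158), and with TPM it was 0.74 and not called. Its counts were 190 to 290 reads in the control libraries and 211 to 405 in Al. Itgb2, the leukocyte beta chain, was low, at 0.428 to 0.641 FPKM in control and 0.289 to 0.407 in Al, which did not overlap as deposited. It was not called on the main scale (-0.14), where the groups overlapped, and was called lower with TPM (-0.78).

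In all 6 libraries Itgb1 was the highest beta chain, followed by Itgb5, Itgb7 and Itgb4. Itgb1 took 58.2%, 59.7% and 61.0% of the summed FPKM of the beta chains in control and 59.7%, 64.8% and 66.5% in Al, which overlap (p = 0.3 by a two-sided exact permutation test). Itgb5 took 35.7 ± 3.86% in control and 30.5 ± 4.83% in Al (SD, n = 3 each, exact permutation p = 0.2). Such shares do not depend on the scale between libraries. Summed over the family, the beta chains had 227 to 241 FPKM in control and 299 to 331 in Al, and the alpha chains 121 to 128 and 84.7 to 112. After scaling by size factors, the beta chains summed to 191 to 201 in control and 320.2 to 412 in Al, and the alpha chains to 99.8 to 108 and 106 to 120.5. The groups of the beta sums were thus apart on both scales, whereas the alpha sums were lower in Al as deposited and overlapped after scaling.

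Of 8 tested alpha chains, 2 were called higher (25%, near the 26.2% of all genes) and none lower (against 24.4%). None of the 5 expressed ones was called either way on the main scale, against 50.6% of all genes, but with TPM 3 of them, Itga2b, Itga5 and Itga6, were called lower, against 53.1% of all genes. Itgav, the alpha chain of the vitronectin receptors, had 40.7, 39.9 and 38.3 FPKM in control and 32.2, 35.6 and 36.5 in Al. Itga3, a laminin-binding chain, had 29.5, 28.2 and 27.9 FPKM and 23.7, 24.3 and 23.998. For both genes the Al libraries were below the control libraries as deposited and above them after scaling. Their log2 fold changes were 0.30 ± 0.09 for Itgav (-0.19 as deposited and -0.49 with TPM) and 0.24 ± 0.10 for Itga3 (-0.25 as deposited and -0.55 with TPM), so no direction can be given.

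Itga5, the alpha chain of the main fibronectin receptor, had 43.4, 38.8 and 38.7 FPKM in control and 16.6, 23.4 and 37.4 in Al. Al 3 lay near the control libraries, and the spread within the Al group was wider (SD 10.6 against 2.69). Its log2 fold change was -0.23 ± 0.21 (limma adjusted P = 0.350), from 0.01 without Al 1 to -0.46 without Al 3. It was called lower as deposited (-0.72) and with TPM (-1.02). Itga6, the laminin-binding partner of Itgb4, had 10.99, 10.3 and 13.6 FPKM in control and 8.96, 9.36 and 9.77 in Al, and its log2 fold change of 0.18 turned to -0.60 with TPM, where it was called lower. Itga2b, a chain known from platelets, was at 0.567 to 1.67 FPKM in all libraries and was not called (log2 fold change -0.24 ± 0.28). With TPM it was called lower (-0.95). Shares of the alpha chains overlapped between the groups for all 5, with Itga5 at 32.7 ± 1.08% in control and 25.7 ± 6.96% in Al.

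Both higher calls of the family were among its 3 low members. Itga11, a collagen-binding chain known from fibroblasts, had 0.351, 0.476 and 0.245 FPKM in control and 1.41, 1.01 and 2.15 in Al, with no overlap. These values rest on 54 to 102 reads and 109 to 224 reads a library. Itga11 had a log2 fold change of 2.21 ± 0.30 (limma adjusted P = 0.000283) and at least 1.54 under the other scalings. Itga7, a laminin-binding chain of muscle, had 0.266, 0.222 and 0.0867 FPKM in control and 0.392, 0.611 and 0.586 in Al, a log2 fold change of 1.50 ± 0.34 (limma adjusted P = 0.00455). Itga7 was not called with a pseudocount of 1. Itga10, also collagen-binding, was not called (0.41 ± 0.22).

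**Figure D2:**
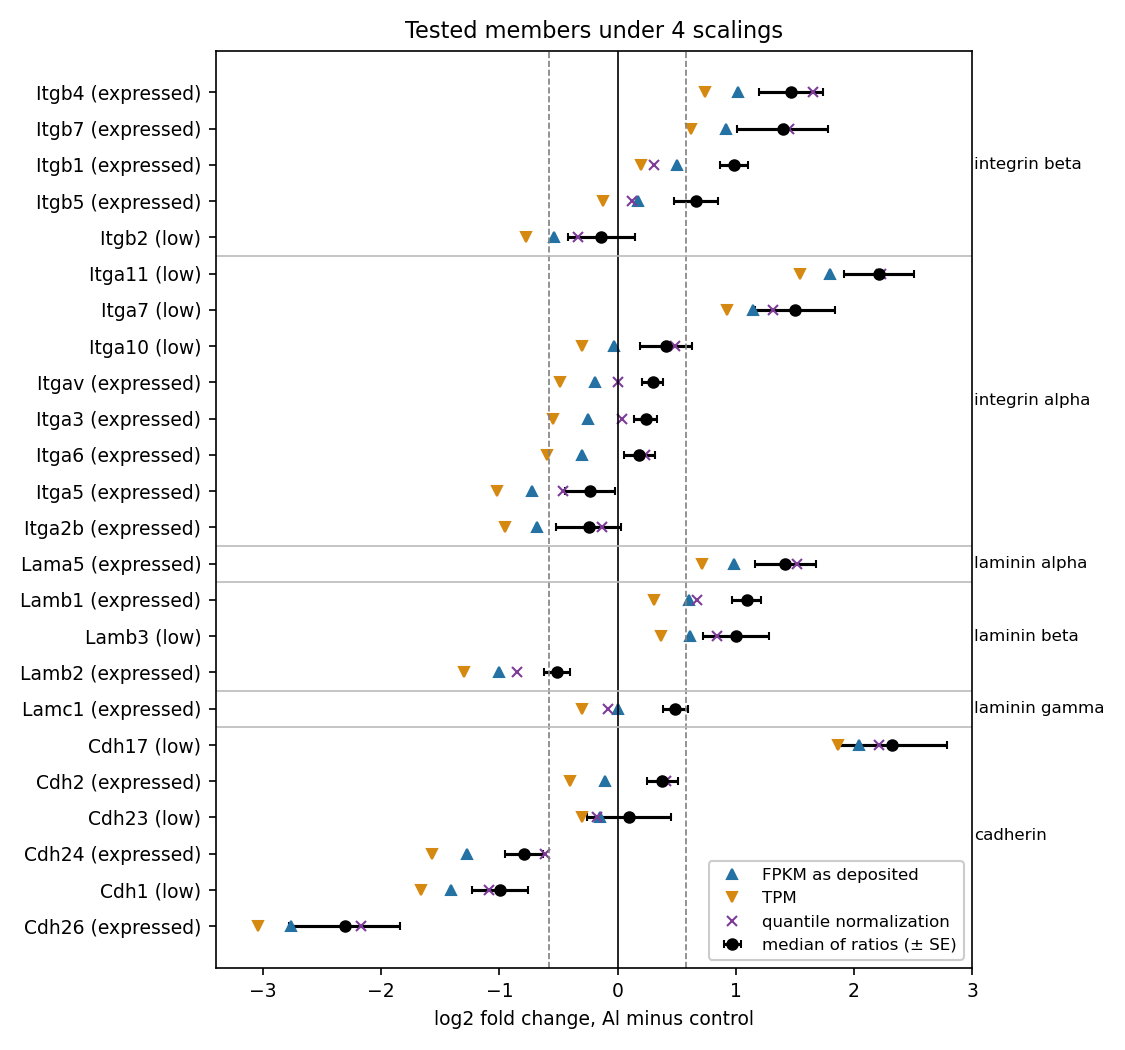
Log2 fold change (Al minus control) of 24 tested members by family, with the standard error on the median-of-ratios scale (black) and the values under the 3 other scalings. Dashed lines mark the 0.58 threshold: the deposited and TPM values sit left of the black points, and Itgb5 crosses 0 with TPM at -0.12.

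Of the 6 laminin chains tested, 3 were called higher, Lamb1, Lamb3 and Lama5, and none was called lower on the main scale (against 26.2% higher and 24.4% lower of all genes). Lamb1, the beta 1 chain of laminin trimers in many basement membranes, had 52.0, 48.5 and 40.0 FPKM in control and 60.4, 73.0 and 80.7 in Al. All Al libraries were above all control libraries. Its log2 fold change was 1.09 ± 0.12 (limma adjusted P = 0.000117), and 0.31 with TPM, where the call was lost. Lamb2, the beta 2 chain known from neuromuscular junctions and kidney, had 64.9, 57.8 and 60.1 FPKM in control and 26.9, 27.3 and 38.2 in Al. Every Al library was below every control library. The log2 fold change of Lamb2 was -0.51 ± 0.11 (limma adjusted P = 0.00403), under the fold threshold, and it was called lower as deposited (-0.999), with quantile normalization (-0.85) and with TPM (-1.30). Without Al 3 it was also called lower (-0.60), and likewise by limma voom on the recovered reads (-0.58).

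The proportion of Lamb1 to Lamb2 in a library needs no scale between libraries. It rests on the gene lengths behind the FPKM, which are the same in all libraries. These were 5977 bases for Lamb1 and 5629 for Lamb2, against 9917 and 6082 bases of exons in GENCODE. Lamb1 took 44.4%, 45.5% and 39.8% of the summed laminin beta FPKM in control and 68.8%, 72.4% and 67.4% in Al, while Lamb2 took 55.4%, 54.2% and 59.8% and then 30.6%, 27.1% and 31.9%. Lamb2 was the higher of the pair in every control library and Lamb1 in every Al library. The difference in the Lamb1 share was 26.3 percentage points, with an exact permutation p of 0.1, the smallest value that 3 libraries against 3 can give. The ratio of Lamb1 to Lamb2 FPKM was 0.801, 0.840 and 0.666 in control and 2.25, 2.67 and 2.12 in Al, a ratio chosen after its values were seen. Of the 16 shares compared over all families, 7 did not overlap between groups, and the smallest p adjusted over them was 0.229.

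The windows around the transcription starts of Lamb1, Lamb2 and Itgb1 are printed because the proportion of Lamb1 to Lamb2 did not overlap between the groups and Itgb1 was the most abundant integrin. Each runs from 250 bases before to 50 after the RefSeq start (build GRCm38.p6, 5′ to 3′ on the plus strand), with every CG pair in capitals. Lamb1 is chr12:31265043-31265342, Lamb2 is chr9:108479612-108479911 and Itgb1 is chr8:128685404-128685703. GENCODE starts Lamb1 at 31265234 and Lamb2 at 108479736, both ahead of the RefSeq starts used for these windows.
Lamb1: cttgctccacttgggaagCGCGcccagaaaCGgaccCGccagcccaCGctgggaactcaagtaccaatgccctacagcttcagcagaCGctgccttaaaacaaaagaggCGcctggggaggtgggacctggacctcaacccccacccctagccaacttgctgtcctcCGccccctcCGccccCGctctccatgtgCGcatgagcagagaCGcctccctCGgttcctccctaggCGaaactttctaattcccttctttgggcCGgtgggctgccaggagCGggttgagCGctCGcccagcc
Lamb2: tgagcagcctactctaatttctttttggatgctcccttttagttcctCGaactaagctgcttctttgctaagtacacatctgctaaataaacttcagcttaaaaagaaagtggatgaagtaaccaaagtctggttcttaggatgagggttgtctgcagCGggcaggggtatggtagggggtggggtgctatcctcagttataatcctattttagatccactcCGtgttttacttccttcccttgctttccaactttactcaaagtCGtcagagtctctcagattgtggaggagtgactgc
Itgb1: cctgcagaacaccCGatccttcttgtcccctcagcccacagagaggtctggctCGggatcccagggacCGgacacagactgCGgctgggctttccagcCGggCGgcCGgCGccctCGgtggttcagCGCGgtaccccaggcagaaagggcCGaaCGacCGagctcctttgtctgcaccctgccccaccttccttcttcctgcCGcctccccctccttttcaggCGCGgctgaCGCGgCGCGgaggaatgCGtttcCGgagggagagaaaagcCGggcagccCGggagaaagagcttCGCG
The sequence CG, which reads the same on both strands, occurred 18 times in the Lamb1 window, 4 times in that of Lamb2 and 27 times in that of Itgb1. Of all RefSeq windows of this length, 94.2% held at least 1 CG, 38.3% held 4 or fewer and 30.1% held 18 or more. A window was present for 35 of the 56 members, among them 12 of the 17 expressed ones, whose median was 19 CG against 22 for all genes of the table at or above 1 FPKM. These counts describe the reference sequence and say nothing of methylation or binding in these cells.

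Lamb3, the beta chain of epithelial laminin, was low, with 0.330, 0.322 and 0.413 FPKM in control and 0.524, 0.448 and 0.871 in Al. Its log2 fold change was 1.004 ± 0.28 (limma adjusted P = 0.0130), and it lost the call as deposited, with TPM and with a pseudocount of 1. Lamc1, the gamma chain shared by most laminins, had 107, 94.6 and 99.4 FPKM in control and 95.4, 92.2 and 115 in Al. It was the most abundant laminin gene and overlapped between the groups as deposited. Lamc1 had a log2 fold change of 0.49 ± 0.11, and with TPM it was -0.30.

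The alpha chains of laminin were scarce. Lama5, found in many adult basement membranes, was the only one expressed, at 0.853, 0.538 and 0.641 FPKM in control and 1.05, 1.71 and 1.57 in Al. All Al libraries were above all control libraries. Lama5 had a log2 fold change of 1.42 ± 0.26 (limma adjusted P = 0.00137), and it was called under every scaling, with 0.71 at the least. Even in Al its mean of 1.44 FPKM stood beside 101 FPKM for Lamc1 and 71.4 FPKM for Lamb1, each per the gene length behind its FPKM. That length was 5977 bases for Lamb1, against 9917 bases of exons in GENCODE. Lama2, the alpha chain of muscle laminin, lay below the test limit, with 0.0718, 0.108 and 0.0745 FPKM in control and 0.0220, 0.0402 and 0.0277 in Al. Its reads were 28, 48 and 34 in control and 6, 9 and 6 in the less deeply sequenced Al libraries. Lama1, Lama3 and Lama4 had at most 6 reads in a library.

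**Figure D3:**
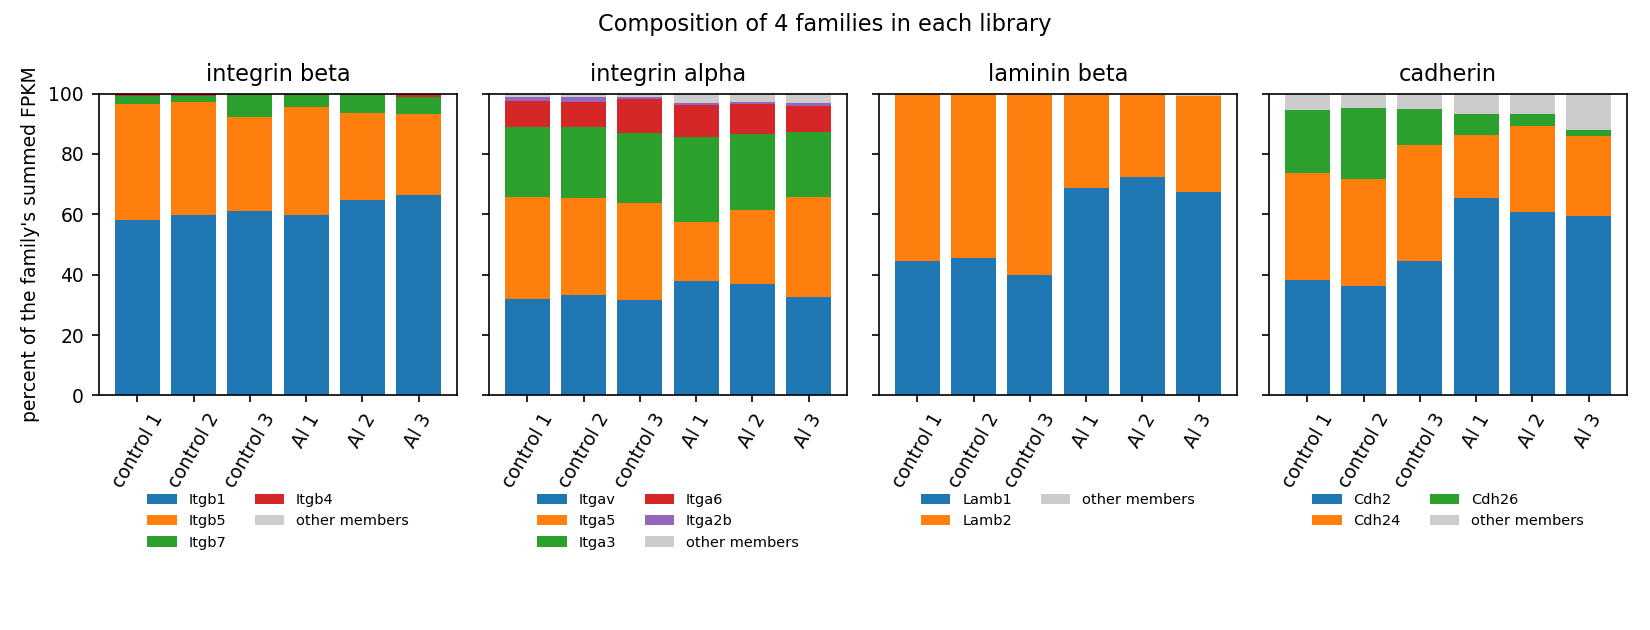
Percent of the summed FPKM of 4 families taken by each expressed member in each of the 6 libraries, with all remaining members of the family in grey. In the laminin beta panel Lamb1 takes 39.8% to 45.5% in control and 67.4% to 72.4% in Al, and in the cadherin panel Cdh26 takes 12.04% to 23.3% and 2.17% to 7.04%.

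Among the cadherins, 3 of 6 tested were called lower and 1 higher (against 24.4% and 26.2% of all genes), with a median log2 fold change of -0.35. Without Cdh17, which reached the test through the Al group alone, 3 of 5 were lower, none was higher and the median was -0.79. Cdh2, N-cadherin, the classical cadherin of neurons and mesenchymal cells, had 11.5, 11.6 and 10.6 FPKM in control and 11.1, 10.9 and 9.46 in Al. The groups overlapped as deposited. Cdh2 was not called (log2 fold change 0.38 ± 0.13, limma adjusted P = 0.0356), and its direction turned as deposited (-0.10) and with TPM (-0.40). Cdh24, a cadherin that binds catenins, had 10.7, 11.4 and 9.12 FPKM in control and 3.56, 5.12 and 4.18 in Al, without overlap. Its log2 fold change was -0.79 ± 0.16 (limma adjusted P = 0.00273), and from -0.61 to -1.57 under the other scalings. Cdh26, a cadherin known from epithelia, had 6.32, 7.49 and 2.87 FPKM in control and 1.20, 0.693 and 0.345 in Al. Control 3 was the lowest control library and still above every Al library. The log2 fold change of Cdh26 was -2.31 ± 0.47 (limma adjusted P = 0.00265), and it ranged from -1.84 without Al 3 to -2.73 without Al 1.

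Cdh1, E-cadherin, the cadherin of epithelia, was low, with 1.08, 1.23 and 1.003 FPKM in control and 0.271, 0.403 and 0.395 in Al. The reads behind these values were 182, 236 and 198 in control and 32, 39 and 37 in Al. Its log2 fold change was -0.99 ± 0.24 (limma adjusted P = 0.00628), and the call was lost with a pseudocount of 1. The ratio of Cdh1 to Cdh2 was 0.0934, 0.106 and 0.0942 in control and 0.0243, 0.0369 and 0.0418 in Al, a comparison within each library that needs no scale. These groups did not overlap (p = 0.1 by the exact permutation test, its lower limit here). All 7 epithelial markers of the list were under the test limit in these libraries.

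Cdh17, a cadherin known from liver and intestine, was the cadherin counted as higher. It had 0.0589, 0.0839 and 0.0377 FPKM in control and 0.567, 0.231 and 1.17 in Al, from 6 to 13 reads and 18 to 88 reads. The log2 fold change of 2.32 for Cdh17 is given as a description, without its P, since the gene passed the test limit only through the group in which it was high. On this scale the added 0.1 makes the change of such low values appear smaller. Cdh23, a cadherin of hair cells, was low and was not called (0.10 ± 0.36). Within the family, Cdh2 took 38.2%, 36.2% and 44.6% of the summed FPKM in control and 65.3%, 60.8% and 59.5% in Al, beside lower shares of Cdh24 (36.4 ± 1.57% and 25.2 ± 3.93%) and Cdh26 (18.7 ± 5.94% and 4.36 ± 2.47%). All 3 shares were without overlap between the groups (exact permutation p = 0.1 each).

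Genes that work with these families were taken from lists of textbook partners. Of 27 tested adaptors and kinases of integrin adhesions, 4 were called higher (14.8%, against 26.2% of all genes) and 10 lower (37%, against 24.4%), with a median log2 fold change of -0.25. Those 10 were lower under all 4 scalings (against 20.5% of all genes), and none of the 4 was higher under all of them (against 8.75%). Tns1, a tensin that links integrins to actin, had 33.9 FPKM in control and 7.26 in Al (log2 fold change -1.73 ± 0.16). Parvb, a parvin that binds the integrin-linked kinase, had 23.1 and 5.32 FPKM (-1.62 ± 0.14). Vasp, an actin regulator of adhesions, had 28.5 and 7.11 FPKM (-1.55 ± 0.17), and Itgb1bp1, which binds the tail of the beta 1 chain, had 15.5 and 4.86 FPKM (-1.17 ± 0.12). The limma adjusted P values of these 4 genes were all at or under 8.7e-05. Itgb1 itself was called higher on the main scale.

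Of 11 tested extracellular ligands of integrins other than laminins, 4 were called higher (36.4%, against 26.2% of all genes) and 1 lower (9.09%, against 24.4%), with a median log2 fold change of 0.41. Under all 4 scalings 4 were higher (36.4%, against 8.75% of all genes) and 1 lower (9.09%, against 20.5%). As deposited 3 were called lower (against 42% of all genes), as were 3 with TPM (against 53.1%) and 3 with quantile normalization (against 24.2%). The matricellular proteins Cyr61 (listed today as Ccn1) and Ctgf (Ccn2) had 195 and 66.8 FPKM in control and 505 and 154 in Al (log2 fold changes 1.88 ± 0.26 and 1.72 ± 0.28). Mfge8, a bridging ligand of the alpha v integrins, had 104 and 210 FPKM (1.51 ± 0.15), and Spp1, osteopontin, 185 and 353 FPKM (1.43 ± 0.15). Fn1, fibronectin, was chosen after its values were seen as the main ligand of Itga5, and was not called (-0.18 ± 0.23), but it was called lower under the other 3 scalings.

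Of 9 tested partners of laminin in the basement membrane, 4 were called higher (44.4%, against 26.2% of all genes) and 2 lower (22.2%, near the 24.4% of all genes), with a median log2 fold change of 0.51. Under all 4 scalings 1 was higher (11.1%, near the 8.75% of all genes), and Hspg2, perlecan, chosen after its values were seen, was called on the main scale alone (0.60, and -0.18 with TPM). Fbln2, fibulin-2, had 194 FPKM in control and 507 in Al (log2 fold change 1.87 ± 0.17) and was higher under all 4 scalings. Nid1, nidogen, which links laminin to collagen IV, had 43.3 and 74.5 FPKM (1.26 ± 0.16), and Sparc, a collagen-binding matrix protein, 512 and 855 FPKM (1.19 ± 0.26). Both of these lost the call with TPM, and Sparc also with quantile normalization (0.09). Utrn, utrophin, which ties the dystroglycan complex to actin, had 19.2 and 7.53 FPKM (-0.87 ± 0.10) and was lower under all 4 scalings.

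Of 12 tested catenins and other genes of the cadherin complex, none was called higher (against 26.2% of all genes) and 5 were called lower (41.7%, against 24.4%), with a median log2 fold change of -0.53. Under all 4 scalings 3 were lower (25%, against 20.5%). As deposited 7 of the 12 were called lower (against 42% of all genes), with TPM 10 (against 53.1%) and with quantile normalization 5 (against 24.2%). Ctnnbip1, an inhibitor of beta-catenin, had 10.5 FPKM in control and 2.80 in Al (log2 fold change -1.40 ± 0.18). Ctnnal1, an alpha-catenin relative, had 6.78 and 1.85 FPKM (-1.36 ± 0.17), and Ctnnd1, p120-catenin, which holds cadherins at the membrane, 33.1 and 15.1 FPKM (-0.65 ± 0.10). Vezt, a transmembrane protein of the cadherin complex, had 4.45 and 1.91 FPKM (-0.72 ± 0.14), and it was not called with quantile normalization. Of 6 transcription factors that repress E-cadherin or follow cadherin switching, 1 was called, higher (16.7%, against 26.2% of all genes). Snai1, a repressor of Cdh1, had 10.5 and 18.6 FPKM (1.32 ± 0.15), and lost the call with TPM (0.54). With TPM none of the 6 was higher and 3 were called lower, Zeb1, Zeb2 and Snai2, named after their values were seen, against 53.1% of all genes. Zeb1 was also called lower as deposited (-0.80).

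**Figure D4:**
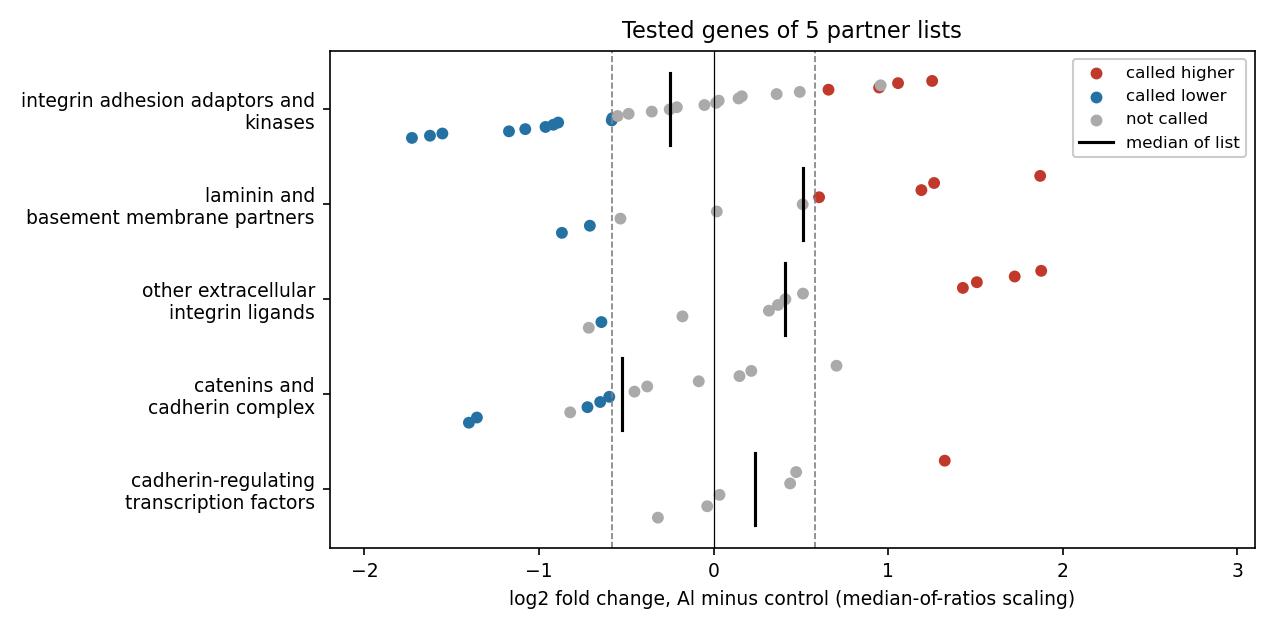
Log2 fold change (Al minus control, median-of-ratios scale) of the tested genes of 5 partner lists, 1 point a gene, with red and blue for genes called higher and lower, grey for genes not called, black lines at the list medians and dashed lines at the 0.58 threshold. The adaptor list begins at -1.73 (Tns1) and has 10 lower calls, and the catenin list has 5 lower calls and no higher one.

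Gene length moved with the fold changes across the whole table. The median log2 fold change was 0.45 for the shortest of 10 length bins of the tested genes and -0.27 for the longest, and the tested members had a median length of 5300 bases, against 3170 for all genes above 0. After the median of each length bin was subtracted, 12 members were called higher (48%, against 24.6% of all genes) and 3 lower (12%, against 25.1%), with Cdh2 (0.65) and Lamc1 (0.63) added. Exons of 4 tested members overlap those of another gene: Itga10, Itga7, Itgav and Itgb4. The overlapping gene lies on the same strand for Itga10 and on the opposite strand for the other 3, and the counting is not stated to use strand, so reads in the shared bases could not be assigned to either gene.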

How the data were processed

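HT22 RNA was taken from 6 input libraries of MeRIP-seq, and the immunoprecipitated libraries were not used here. The authors trimmed reads with Trimmomatic, removed ribosomal reads with SortMeRNA, used HISAT2 to align them to GRCm38/mm10, and deposited FPKM per gene symbol, with no further scaling between libraries. The program that made the FPKM is not given in the methods. The submitters' processing notes name fastp, HISAT2, HTSeq and GRCm39 instead, so the build is uncertain. Gene positions were matched by symbol to GENCODE on GRCm38. The letter M was taken as the Al group, since the design has 2 groups. The members and all gene lists were chosen with earlier results of these data known. The study's methods name a count model, and the deposited FPKM were tested here with limma 3.58.1 (R 4.3.3, lmFit and eBayes with trend) on log2(FPKM / size factor + 0.1). Size factors were medians of ratios over genes with reads in every library and a mean of at least 1 FPKM. Whole reads were recovered from the FPKM steps for 17688 of 17688 genes above 0 (tolerance 0.001) and served for depth, for low members and for limma voom as an alternative. They are whole up to a common factor in genes such as Itgb2, Itgb8 and Cdh23, whose recovered length differs from the annotation. Lengths also differed for Lamb1 (5977 bases, against 9917 in GENCODE), Itgav (7344 and 10744) and Itga2b (3437 and 5454), among others. The levels per length of such genes are uncertain too. Shares within families and ratios were compared with the exact permutation test, two-sided. Every expressed member was named with its values, except 1 member that is counted but not reported here or drawn in the figures. Low members were named where they were called, and others by counts. Of each partner list, the 4 expressed genes called with the largest change were named. Itga10, Itgb2, Cdh23, the values of Lama2, Fn1, Hspg2, Zeb1, Zeb2 and Snai2 were named outside this rule. Alternatives covered the scaling, pseudocount, filter, trend, replicate block, left-out libraries, threshold, voom, length and GC content. Scripts were tested on simulated data. Python 3.11.15 was used with numpy 2.4.6, pandas 2.3.3 and matplotlib 3.10.9. Replicate numbers do not mark a shared culture in the labels.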

Additional observations from a re-analysis of the deposited data

How the results depend on the processing

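The count of members called higher was 10. It was 4 of 25 with TPM (16%, against 9.31% of all genes under TPM). Among these 4 was Cdh17, which reached the test through the Al group alone. A filter at a mean of at least 1 FPKM gave 6 of 17 (35.3%, against 25.8%), since fewer members were then tested. Of these 6, Lama5 (0.677 FPKM in control and 1.44 in Al) and Itgb4 (0.959 and 2.09) passed that filter through the Al group alone. The count called lower was 3, and the deposited scale gave 6 (24%, against 42% of all genes) and TPM 9 (36%, against 53.1%). Both counts stayed within 1.5 times under all other alternatives run. When each library was left out in turn, 9 to 10 members were called higher (36% to 40%, against 24.8% to 27.2% of all genes). In the same fits 3 to 4 were called lower (12% to 16%, against 23.1% to 25.5%). The log2 fold change of Itga6 turned to -0.60 with TPM and that of Itgb5 to -0.12. With the replicate block, 10 members were called higher (40%, against 26% of all genes) and 3 lower (12%, against 24.2%). No call of a member changed with it. Deviations of libraries with the same number had correlations of -0.03, -0.03 and -0.07. No pairing by number was seen, but 3 libraries a group cannot exclude a shared culture. The causes of these shifts were not tested. Depth limits the low members, which had 6 to 236 reads a library.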
